A study of Mus musculus with 6 samples.

Results

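The insulin-like growth factor (IGF) axis was examined in thymic epithelial cells (TEC) through 10 genes: the ligands Igf1 and Igf2, the receptors Igf1r and Igf2r, and the binding proteins Igfbp2 to Igfbp7. The members were all non-control probes whose gene name in the scanner files is 1 of these 10 symbols, which gave 21 of the 41174 probes on the array. Of these, 19 probes passed the filter on dim signals, and each of the 10 genes kept at least 1. The rule reads gene names and no measured value.

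IGF1 and IGF2 are small hormones related to insulin that promote growth, survival and differentiation. Both act through the receptor tyrosine kinase IGF1R, which signals through insulin receptor substrates and the PI3K and AKT kinases, while IGF2R carries IGF2 to lysosomes for degradation. The high-affinity IGF-binding proteins hold the ligands in serum and tissue and can limit or prolong their action, and IGFBP7 binds them only weakly.

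Cells negative for CD45, the leukocyte surface antigen, and positive for the epithelial adhesion molecule EpCAM were sorted from the thymus of 4-week-old C57BL/6 mice that carry the transgene Tg(Meis1-EGFP)FO156Gsat/Mmcd, a bacterial artificial chromosome in which Meis1 regulatory sequence drives EGFP. All 3 gates carry this transgene and none came from mice without it, so a gate reads the reporter and not Meis1 protein. The Meis1-high gate took small cells (low forward scatter) with high EGFP, the Meis1-low gate large cells (high forward scatter) with intermediate EGFP, and Meis1-negative took small cells with no EGFP signal. Each of the gates had 2 arrays, each of RNA pooled from 6 mice, of which 10 ng was amplified and labelled with Cy3. EGFP and cell size therefore both differ between Meis1-low and the other gates, and their effects cannot be told apart. The first replicates of the 3 gates shared slide 1, and the second replicates shared slide 2.

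All levels are given as log2 signal over the 75th percentile of the same array, so a level of 0 is that percentile, and a difference of 1 is a doubling. The 75th percentile signal ran from 73.3 to 165.2 over the 6 arrays, and 53.1% to 69.6% of spots were well above background, a mark set by the scanner software. Meis1 itself was at 0.18 ± 0.09 in Meis1-high (SD, n = 2 arrays), -1.98 ± 0.52 in Meis1-low and -2.10 ± 1.56 in Meis1-negative. Epcam (levels 2.58 to 4.79) and Foxn1 (-0.68 to 1.35), which define thymic epithelium, were well above background on all 6 arrays. Meis1-negative replicate 1 stood apart: the summed signal of 14 thymocyte markers there was 1220 times the 75th percentile, against 10.8 to 35.4 on the other arrays, and the CD3 chain gene Cd3e reached a level of 6.82. That of 7 epithelial markers was 31.8 on this array and 123 to 211 on the others. Replicate 2 of this gate also read above the other gates for Ptprc, the gene of CD45, which read 5.16 and 3.17 on the 2 Meis1-negative arrays and -1.0 to 0.43 on the other 4. Of the 14 thymocyte markers, 14 were lower in Meis1-high than in Meis1-negative by mean. Of these, 10 were lower without overlap of arrays, beside 19.9% of all genes. For the genes described below, differences from Meis1-negative are followed by the value without replicate 1 or on slide 2, which still rests on an array with Ptprc at 3.17. No difference of an IGF gene reached an adjusted p of 0.05 with the main settings, so the directions that follow are those of the means of 2 arrays a gate.

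The probes are 60-base oligonucleotides, and their sequences show which stretch of each transcript a value reads. For Igfbp5, Igf1r and Igfbp3, whose results rest on several probes, the first 30 bases of each main probe are shown 5′ to 3′ in lower case, with the position of the whole probe on mouse build mm9.
Igfbp5 probe A_52_P281702 (chr1:72904829-72904888): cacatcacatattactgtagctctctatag
Igfbp5 probe A_51_P204153 (chr1:72907366-72907425): aatagaattttccttggtgtctcccatcta
Igf1r probe A_51_P318365 (chr7:75371556-75371615): caacacttaatagcaacaggacactcgaga
Igf1r probe A_52_P634111 (chr7:75372500-75372559): ctaggacttcttcatgggtctctcagttct
Igf1r probe A_51_P474538 (chr7:75376998-75377057): gtagtcgttgacgaagctctggtttacaag
Igfbp3 probe A_52_P253179 (chr11:7106594-7106653): gcagttttccaaaaacacagatttcttttc
Igfbp3 probe A_52_P851352 (chr11:7111815-7111874): ctgtgacacaattcacaattccctatttaa

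For the ligand Igf1 and the binding proteins Igfbp2 and Igfbp4, whose levels also separated gates, 1 probe each is shown whole, as the files give it.
Igf1 probe A_52_P536434 (chr10:87376418-87376477): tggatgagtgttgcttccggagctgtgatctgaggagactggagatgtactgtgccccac
Igfbp2 probe A_51_P423308 (chr1:72898677-72898736): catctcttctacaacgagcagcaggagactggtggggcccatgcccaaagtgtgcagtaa
Igfbp4 probe A_51_P398971 (chr11:98909591-98909650): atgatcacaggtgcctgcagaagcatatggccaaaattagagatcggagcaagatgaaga
No gene models of build mm9 were used here, so exons are not assigned. The probes Igf1 A_52_P306327, Igf1r A_52_P668647 and Igfbp3 A_52_P851352 are listed under cDNA clones, and the other 18 under reference or older mRNA records of their gene.

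Igf1 read higher in Meis1-low than in both gates of small cells. Its representative probe, A_52_P536434, read 4.56 and 3.69 in the Meis1-low pools, 3.27 and 0.64 in the Meis1-high pools, and 1.16 and 2.66 in the Meis1-negative pools. Both Meis1-low arrays lay above all 4 others, while the arrays of Meis1-high and Meis1-negative overlapped. Meis1-high differed from Meis1-low by -2.17 ± 1.0 (SE, limma adjusted p = 0.420), a 4.51-fold lower signal, with -1.30 on slide 1 and -3.05 on slide 2, and -0.86 when Meis1-high replicate 2 was left out. Meis1-low differed from Meis1-negative by 2.22 ± 1.0 (limma adjusted p = 0.607), with 3.41 and 1.03 on the slides and 1.46 when Meis1-negative replicate 1 was left out. For Meis1-high minus Meis1-negative the difference was 0.04 ± 1.0, and it pointed opposite ways on the slides, with 2.11 and -2.02. Without Meis1-negative replicate 1 it was -0.71.

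The other 3 Igf1 probes also read highest in Meis1-low by mean, though A_52_P306327 passed the filter through Meis1-low alone. Probe A_51_P147942, spotted 10 times on each array, read 4.49 and 3.62 in the Meis1-low pools, 3.06 and 1.11 in the Meis1-high pools and 0.71 and 2.89 in the Meis1-negative pools. The SD of log2 signal over its 10 spots was 0.05 or 0.06 on every array, which measures the noise of spots within an array and not the spread of pools. Probe A_52_P351116 differed by -3.09 ± 1.10 between Meis1-high and Meis1-low, with -3.03 and -3.14 on the slides. On probe A_52_P306327, from a cDNA clone, Meis1-low and Meis1-negative overlapped. Their difference was 1.45 with all arrays and -0.58 without Meis1-negative replicate 1. This probe was not well above background on either Meis1-high array, and its signal there was at least 2.98-fold lower than in Meis1-low. Such a bound sets the brighter gate against the lowest signal that counts as well above background on the dim arrays.

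Igf2, the fetal growth hormone expressed from the paternal allele, had overlapping arrays in most pairs of gates. Its representative probe A_51_P516833 read -0.93 and -1.70 in the Meis1-high pools, -1.18 and -0.22 in the Meis1-low pools, and -2.85 and -1.30 in the Meis1-negative pools. Both Meis1-low arrays lay above both Meis1-negative arrays, and the other pairs of gates overlapped. Meis1-low differed from Meis1-negative by 1.38 ± 0.77 (limma adjusted p = 0.624), which was 0.60 when Meis1-negative replicate 1 was left out, and Meis1-high from Meis1-low by -0.62 ± 0.77 (limma adjusted p = 0.776). The second Igf2 probe, A_51_P516826, again spotted 10 times, read -1.23 and -1.39 in the Meis1-low pools against -3.53 and -2.33 in the Meis1-high pools and -3.97 and -2.16 in the Meis1-negative pools. On Meis1-high replicate 1, 0 of its 10 spots were well above background, and on Meis1-negative replicate 1 only 2 of 10 were, with a spot SD of 0.51. Its low values on these arrays are near the limit of detection, and it passed the filter through Meis1-low alone. On slide 2, where all gates were measured, Meis1-high minus Meis1-low was -0.94 and Meis1-low minus Meis1-negative was 0.77.

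**Figure D1:**
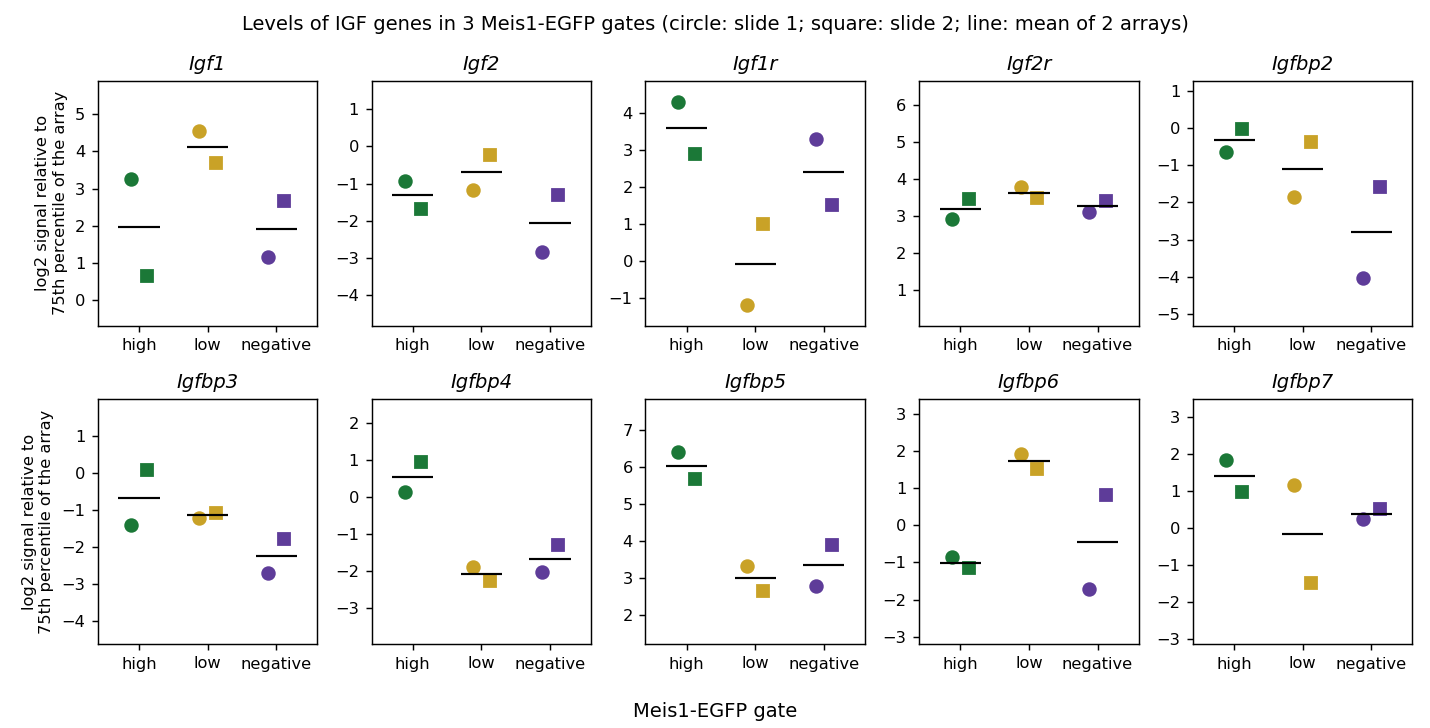
Level of each of the 10 genes (log2 signal relative to the 75th percentile of the array, vertical axis) on the 6 arrays by Meis1-EGFP gate (horizontal axis), each from its brightest probe; circles are slide 1, squares slide 2, and lines the mean of 2 arrays. All panels span the same number of log2 units; Igfbp4 and Igfbp5 are highest on both Meis1-high arrays, Igf1 and Igfbp6 on both Meis1-low arrays, and Igf2r stays between 2.91 and 3.78.

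Igf1r, the signalling receptor, read lower in Meis1-low than in the gates of small cells. Its representative probe A_51_P318365 read 4.28 and 2.87 in the Meis1-high pools, -1.18 and 1.0 in the Meis1-low pools, and 3.29 and 1.5 in the Meis1-negative pools. Both Meis1-low arrays lay below all 4 others, and Meis1-high and Meis1-negative overlapped. Meis1-high exceeded Meis1-low by 3.67 ± 1.01 (limma adjusted p = 0.253, unadjusted p = 0.00753), which is 12.7-fold. That difference was 5.47 on slide 1 and 1.87 on slide 2. Meis1-low differed from Meis1-negative by -2.49 ± 1.01 (limma adjusted p = 0.607), with -4.48 on slide 1 and -0.50 on slide 2. This became -1.59 when Meis1-negative replicate 1 was left out and -1.40 when Meis1-low replicate 1 was.

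The size of the Igf1r difference depended on the probe. Probe A_52_P634111 read 2.70 and 2.49 in the Meis1-high pools, 1.33 and 1.09 in the Meis1-low pools, and 1.85 and 1.77 in the Meis1-negative pools, so that the 3 gates did not overlap. On it Meis1-high exceeded Meis1-low by 1.38 ± 0.59, with 1.37 and 1.39 on the slides (limma adjusted p = 0.409 over all probes). On probe A_51_P474538 the same difference was 0.96 ± 0.66, with 0.97 and 0.95. Probe A_52_P668647, from a cDNA clone, was well above background only on Meis1-negative replicate 1 and did not pass the filter. The 3 probes that passed read higher in Meis1-high than in Meis1-low on both slides, by 12.7-fold on A_51_P318365, 2.61-fold on A_52_P634111 and 1.95-fold on A_51_P474538. Averaging the 3 probes that passed gave a difference of 2.00.

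Igf2r, the clearance receptor for IGF2, was the steadiest of the 10 genes, spanning 0.87 over the 6 arrays. Its probe A_51_P125467 read 2.91 and 3.47 in the Meis1-high pools, 3.78 and 3.49 in the Meis1-low pools, and 3.12 and 3.41 in the Meis1-negative pools. The Meis1-low arrays were highest, and Meis1-high minus Meis1-low was -0.45 ± 0.60 (limma adjusted p = 0.793), with -0.02 on slide 2. This lies within the spread of the arrays.

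Among the binding proteins, Igfbp5, a secreted protein that also binds extracellular matrix, was highest in Meis1-high on both of its probes. Probe A_52_P281702 read 6.4 and 5.67 in the Meis1-high pools, 3.34 and 2.66 in the Meis1-low pools, and 2.78 and 3.91 in the Meis1-negative pools. Both Meis1-high arrays lay above all 4 others, and Meis1-low and Meis1-negative overlapped. The second probe, A_51_P204153, read 5.17 and 4.16, then 1.71 and 1.24, then 0.91 and 2.46 in the same order of gates, and separated them in the same way. On slides 1 and 2 Meis1-high exceeded Meis1-low by 3.06 and 3.0 on the first probe and by 3.46 and 2.92 on the second. The fit gave 3.03 ± 0.70, an 8.17-fold higher signal (limma adjusted p = 0.253, unadjusted p = 0.00298, rank 202 of 18200 genes). Against Meis1-negative it gave 2.69 ± 0.70 (limma adjusted p = 0.319), with 3.62 and 1.76 on the slides and 2.12 without Meis1-negative replicate 1.

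Igfbp4, which inhibits IGF action until proteases of the pappalysin family cleave it, followed the same order. Its representative probe A_52_P257502 read 0.12 and 0.94 in the Meis1-high pools, -1.91 and -2.28 in the Meis1-low pools, and -2.04 and -1.31 in the Meis1-negative pools. Again both Meis1-high arrays lay above the other 4, whose gates overlapped. Meis1-high exceeded Meis1-low by 2.63 ± 0.65 (limma adjusted p = 0.253, unadjusted p = 0.00449), which is 6.18-fold, with 2.03 and 3.23 on the slides. It exceeded Meis1-negative by 2.20 ± 0.65 (limma adjusted p = 0.345), with 2.16 and 2.25 on the slides and 1.84 when Meis1-negative replicate 1 was left out. Probe A_51_P398971 was well above background on both Meis1-high arrays (-1.81 and -0.58) but in each other gate only on replicate 2 (-3.22 in Meis1-low and -2.31 in Meis1-negative). It passed the filter through Meis1-high alone, and on slide 2, where all gates were measured, Meis1-high was 2.64 above Meis1-low and 1.73 above Meis1-negative.

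Igfbp6, the binding protein that prefers IGF2, ran the other way. Its probe A_51_P374571 read 1.92 and 1.53 in the Meis1-low pools, -0.86 and -1.16 in the Meis1-high pools, and -1.71 and 0.83 in the Meis1-negative pools. Both Meis1-low arrays were above all others, and the Meis1-negative arrays fell on either side of Meis1-high. Meis1-high differed from Meis1-low by -2.74 ± 0.89 (limma adjusted p = 0.291, unadjusted p = 0.0165), a 6.68-fold lower signal, and the slides gave -2.78 and -2.70. Against Meis1-negative the difference of Meis1-low was 2.17 ± 0.89 (limma adjusted p = 0.607), with 3.63 on slide 1 and 0.71 on slide 2. It was 3.44 when Meis1-negative replicate 2 was left out and 0.90 when replicate 1 was. The larger value thus came with only the array of the high thymocyte sum in that gate. With 1 array left, the spread of Meis1-negative was taken from the other gates.

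Igfbp3, the main carrier of IGFs in serum, gave different answers on its probes. The representative probe A_52_P253179 read -1.41 and 0.06 in the Meis1-high pools, -1.22 and -1.09 in the Meis1-low pools, and -2.70 and -1.80 in the Meis1-negative pools. On it Meis1-high and Meis1-low overlapped, with a difference of 0.48 ± 0.73 (limma adjusted p = 0.820) that had opposite signs on the slides. Probe A_52_P851352, from a cDNA clone mapped to the same gene by the files, read -1.40 and -1.49 in the Meis1-high pools, -6.18 and -5.84 in the Meis1-low pools, and -5.53 and -3.83 in the Meis1-negative pools. It was well above background on both Meis1-high arrays and on neither Meis1-low array, where the signal was at least 6.96-fold lower (limma adjusted p = 0.271 over all probes). It thus passed the filter through Meis1-high alone, and no exact size can be given. In Meis1-negative only replicate 2 was well above background, and on slide 2 Meis1-high was 2.34 above it. The third probe, A_51_P228472, was well above background on 3 of 6 arrays and did not pass the filter.

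Igfbp2, a binding protein abundant in fetal tissue and serum, was lowest in Meis1-negative by mean. It read -0.63 and -0.02 in the Meis1-high pools, -1.84 and -0.37 in the Meis1-low pools, and -4.03 and -1.58 in the Meis1-negative pools, where replicate 1 was not well above background. Meis1-high lay above Meis1-negative without overlap, by 2.48 ± 0.95 (limma adjusted p = 0.436, unadjusted p = 0.0342), with 3.40 on slide 1 and 1.56 on slide 2. This difference was 1.25 when Meis1-negative replicate 1 was left out and 3.70 when replicate 2 was. Igfbp2 and Igfbp5 are neighbours on chromosome 1, on opposite strands with 0 protein-coding genes between them in RefSeq (build GRCm38.p6). Igfbp5 read higher in Meis1-high than in Meis1-low without overlap, while the arrays of Igfbp2 in these gates overlapped, with a difference of 0.78 ± 0.95.

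Igfbp7, a secreted protein of vessel walls and basement membranes, was read by probe A_51_P472292. Its level was 1.85 and 0.97 in the Meis1-high pools, 1.16 and -1.49 in the Meis1-low pools, and 0.25 and 0.53 in the Meis1-negative pools. Meis1-high lay above Meis1-negative without overlap, by 1.02 ± 0.93 (limma adjusted p = 0.740), which was 0.89 without Meis1-negative replicate 1. The Meis1-low arrays were 2.65 apart and spanned those of Meis1-negative.

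Over the 10 genes, the limma fit called 0 at an adjusted p under 0.05 in each comparison, as it did for all genes (0% of 18200). At an unadjusted p under 0.05, 4 of 10 IGF genes passed between Meis1-high and Meis1-low (Igf1r, Igfbp4, Igfbp5 and Igfbp6), beside 13.0% of all genes. For Meis1-high against Meis1-negative 3 of 10 passed (Igfbp2, Igfbp4 and Igfbp5), beside 10.5%, and between Meis1-low and Meis1-negative 2 of 10 (Igf1r and Igfbp6), beside 8.09%. Without Meis1-negative replicate 1, an alternative chosen after seeing the data, 3 of 10 passed for Meis1-high against Meis1-negative (Igfbp4, Igfbp5 and Igfbp6), beside 8.40%, and 0 of 10 between Meis1-low and Meis1-negative, beside 3.48%. The genes were chosen with results of these arrays known, so these counts describe the list and test nothing about it.

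By overlap of the arrays, 3 of 10 genes were higher on both Meis1-high arrays than on both Meis1-low arrays, beside 22.7% of all genes, and 3 of 10 were lower, beside 31.0%. These shares are near the background. Against Meis1-negative, 5 of 10 genes (Igfbp2, Igfbp3, Igfbp4, Igfbp5 and Igfbp7) were higher in Meis1-high without overlap, beside 19.3% of all genes, and 0 of 10 were lower, beside 19.9%. Meis1-low exceeded Meis1-negative without overlap in 5 of 10 genes (Igf1, Igf2, Igf2r, Igfbp3 and Igfbp6), beside 23.5%, and lay below it in 1 of 10 (Igf1r), beside 15.8%. Against Meis1-negative replicate 2 alone, Meis1-high was higher on both arrays in 6 of 10 genes (30.7% of all genes) and lower in 1 (38.2%), and Meis1-low was higher in 5 (36.7%) and lower in 3 (31.0%). The median difference over the 10 genes was 0.63 for Meis1-high minus Meis1-low, where the median of all genes was -0.15. It was 1.10 for Meis1-high minus Meis1-negative (all genes -0.10) and 0.73 for Meis1-low minus Meis1-negative (all genes 0.05), and without Meis1-negative replicate 1 these last medians were 1.0 and 0.35. With no filter on dim probes the all-gene medians had the opposite sign in the 3 comparisons (0.19, 0.17 and -0.12). The 3 comparisons share arrays in pairs and are not independent of each other.

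**Figure D2:**
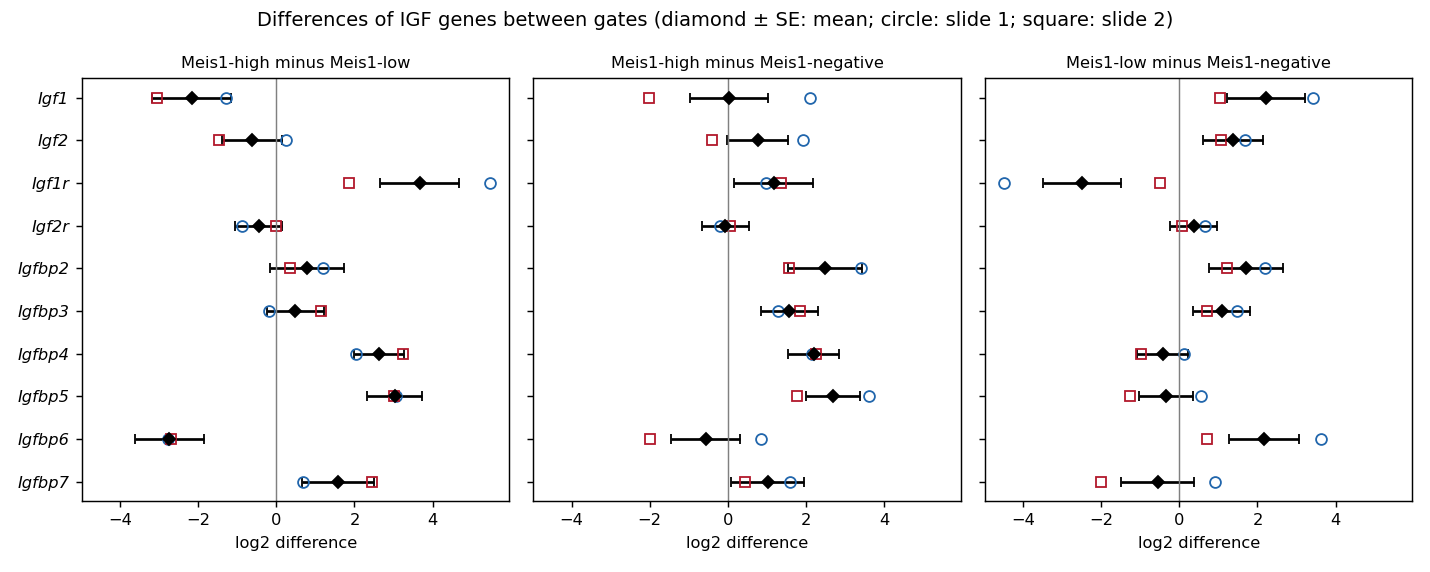
Log2 difference (horizontal axis) of each of the 10 genes (vertical axis) in the 3 comparisons of gates; black diamonds with bars are the fitted difference ± SE over 2 arrays a gate, circles the difference on slide 1 and squares that on slide 2. Igfbp6 and Igfbp5 gave nearly the same Meis1-high minus Meis1-low difference on both slides (-2.78 and -2.70 for Igfbp6, 3.06 and 3.0 for Igfbp5). The Meis1-high minus Meis1-negative difference of Igf1 changed sign between slides (2.11 and -2.02).

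Which IGF genes were called depended on the background correction. With normexp correction (offset 50) in place of the scanner software's own, 3 genes were called between Meis1-high and Meis1-low, beside 1.29% of all genes. They were Igfbp5 (2.98, adjusted p = 0.000218 in limma), Igf1r (3.09, adjusted p = 0.000173) and Igf1 (-1.94, adjusted p = 0.0404). Igfbp5 was also called against Meis1-negative (2.47, limma adjusted p = 0.00177), beside 1.66% of all genes. Igf1r was called between Meis1-low and Meis1-negative (-2.12, limma adjusted p = 0.0265), beside 0.665%. In that fit the prior degrees of freedom were infinite, so that every gene had the same SE of 0.55, whereas the median SE was 0.74 without it. Igfbp4 and Igfbp6 gave 1.16 and -1.85 for Meis1-high minus Meis1-low with normexp and were not called (limma adjusted p = 0.545 and 0.0592).

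**Figure D3:**
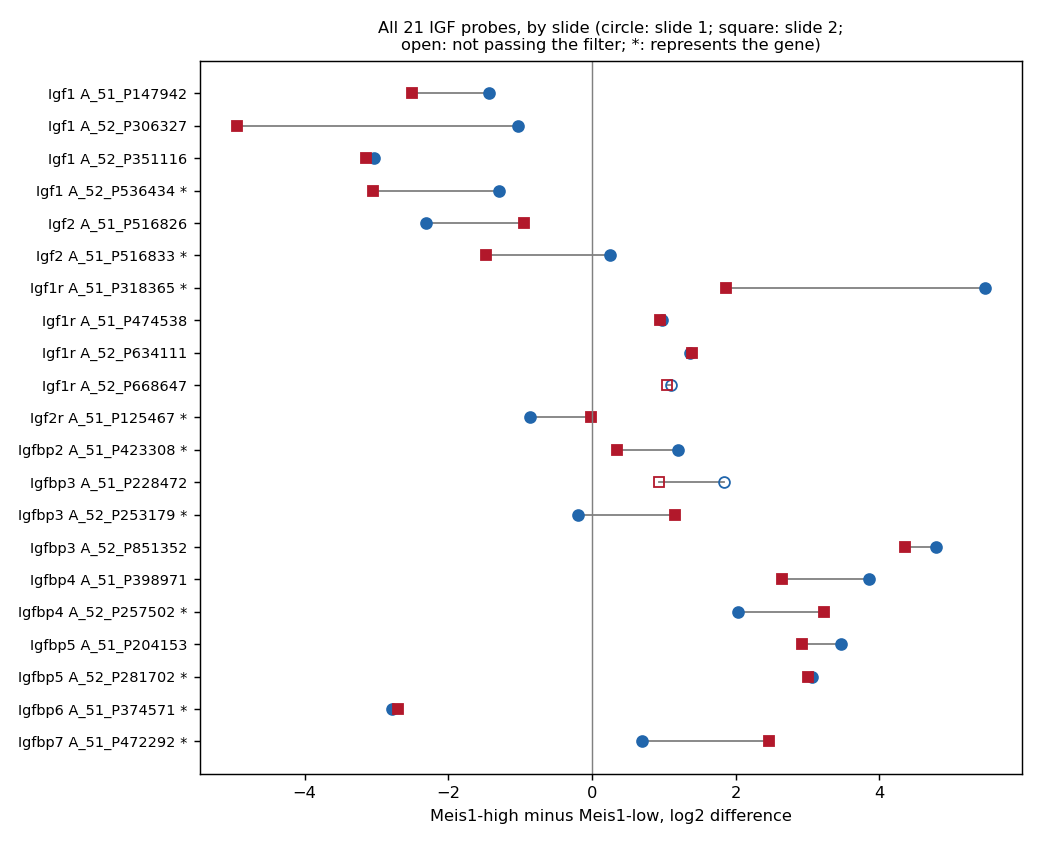
Meis1-high minus Meis1-low (log2 difference, horizontal axis) on each slide for all 21 IGF probes (vertical axis); circles are slide 1, squares slide 2, open symbols the 2 probes that did not pass the filter, and asterisks the probes that represent a gene. The 4 Igf1 probes lie below 0 on both slides. The 3 Igf1r probes that passed and the 2 Igfbp4 and 2 Igfbp5 probes lie above 0. Igf1r ranges from 0.95 to 5.47, and Igfbp3 from -0.19 upward. The highest Igfbp3 probe, A_52_P851352, was not well above background on either Meis1-low array, so its plotted size is not exact. The same holds for Igf1 A_52_P306327, dim on both Meis1-high arrays, and for Igfbp4 A_51_P398971 and Igf2 A_51_P516826 on slide 1.

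The wider pathway was read through 49 further genes, of which 48 were on the array and 45 passed the filter (Irs2 was not found, and Insrr, Irs4 and Foxo4 were too dim). The limma fit called 0 of the 45 in each comparison at an adjusted p under 0.05. At an unadjusted p under 0.05, 2 were higher and 3 lower in Meis1-high than in Meis1-low (all genes 4.70% and 8.25%). Against Meis1-negative, 3 were higher and 3 lower in Meis1-high (all genes 5.71% and 4.82%), and 2 were higher and 0 lower in Meis1-low (all genes 5.02% and 3.07%). Their median differences were 0.03, 0.02 and 0.30 in these comparisons, beside -0.15, -0.10 and 0.05 for all genes. With normexp correction 2, 3 and 0 of the 45 were called in limma, beside 1.29%, 1.66% and 0.665% of all genes. The called pathway genes are named here after their values were seen. Between Meis1-high and Meis1-low they were Igfbp1 (-2.07, adjusted p = 0.0224) and Cyr61, a matrix protein of the CCN family (1.91, adjusted p = 0.0458). Against Meis1-negative they were H19 (-2.24, adjusted p = 0.00663), the transcription factor Stat5b (-2.20, adjusted p = 0.00843) and Cyr61 (2.14, adjusted p = 0.0117). Without Meis1-negative replicate 1 the main settings gave -1.06 for Stat5b and 0.71 for Cyr61, which was not well above background on that array.

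Irs1, the adaptor that couples IGF1R to PI3K, read 1.21 and 1.27 in the Meis1-high pools, -1.47 and -1.96 in the Meis1-low pools, and -3.02 and 0.02 in the Meis1-negative pools. Both Meis1-high arrays lay above the other 4, and the difference from Meis1-low was 2.95 ± 0.99 (limma adjusted p = 0.297). Grb14, an adaptor that inhibits insulin receptor signalling, and Igf2bp1, an RNA-binding protein of the Igf2 mRNA, were well above background on both Meis1-low arrays and neither Meis1-high array, and passed the filter through Meis1-low alone. Their signal in Meis1-high was at least 1.84-fold lower for Grb14 (limma adjusted p = 0.271) and at least 2.47-fold lower for Igf2bp1 (limma adjusted p = 0.338). Igfbpl1, a relative of the binding proteins, differed by -2.08 ± 0.79 (limma adjusted p = 0.338).

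Between Meis1-high and Meis1-negative, the genes with the smallest p were Htra1, Ctgf, H19 and Igf2bp3. Htra1, a secreted protease that can cleave binding proteins, read 2.26 and 2.24 in the Meis1-high pools and -1.08 and 0.66 in the Meis1-negative pools, a difference of 2.46 ± 0.81 (limma adjusted p = 0.384) that was 1.59 without Meis1-negative replicate 1. Ctgf, a matrix protein of the CCN family now named Ccn2, was not well above background on Meis1-negative replicate 1, and Meis1-high lay 1.71 above replicate 2 (limma adjusted p = 0.388 with both arrays). H19, the noncoding RNA imprinted oppositely to Igf2, read -1.05 and -1.88 in the Meis1-high pools, 1.19 and 0.70 in the Meis1-low pools, and 3.51 and -0.10 in the Meis1-negative pools. Its difference was -3.17 ± 1.13 (limma adjusted p = 0.412), with -4.56 on slide 1 and -1.78 on slide 2, and -1.36 without Meis1-negative replicate 1. Igf2bp3, another Igf2 mRNA-binding protein, was at -5.53 and -1.69 in Meis1-high, the former not well above background, and at 0.01 and -0.68 in Meis1-negative. On slide 2, where both gates were measured, it differed by -1.01 (limma adjusted p = 0.412 with all arrays).

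Between Meis1-low and Meis1-negative they were Igfbp1, Igf2bp1, Grb14 and Ins2. Igfbp1, the insulin-regulated binding protein of liver, read 2.11 and 1.04 in the Meis1-low pools, -3.27 and -1.56 in the Meis1-high pools, and -5.86 and 0.09 in the Meis1-negative pools. The values -3.27 and -5.86 were not well above background, so only slide 2 measured Meis1-low against Meis1-negative, at 0.95 (limma adjusted p = 0.607 with all arrays). Ins2, an insulin gene expressed in thymic medullary epithelium, read 0.63 and 0.74 in the Meis1-low pools, -1.07 and -2.17 in the Meis1-high pools, and -3.09 and -0.18 in the Meis1-negative pools. Meis1-low differed from Meis1-negative by 2.32 ± 0.99 (limma adjusted p = 0.607), which was 0.87 without Meis1-negative replicate 1. Igf2bp1 and Grb14 were not well above background on that array either, and differed by 1.98 and 0.45 on slide 2.

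Markers of other cells differed between the gates beside some of these genes, and in sorted bulk RNA fewer cells of a type and less RNA per cell cannot be told apart. Beside Igf1 and Igfbp6, which were highest in Meis1-low, 9 of 9 macrophage and dendritic markers tested were lower in Meis1-high than in Meis1-low by mean. Of these, 7 were lower without overlap of arrays, beside 31.0% of all genes. The summed signal of the 9 markers, in units of the 75th percentile, was 11.8 and 11 in the Meis1-high pools. It was 42.1 and 40.8 in the Meis1-low pools and 6.18 and 33.6 in the Meis1-negative pools. Among the defining markers, Adgre1 was well above background on all 6 arrays, at 3.43 and 3.07 in the Meis1-low pools, and Csf1r on 5. All 3 adipocyte markers tested were also lower in Meis1-high than in Meis1-low without overlap of arrays, with sums of 32.3 and 20.8 against 126 and 79.2. Adipoq was well above background on 4 arrays, and Plin1 on 0. Macrophages and dendritic cells carry CD45, and the sort took CD45-negative cells. Ptprc read -0.69 and 0.37 in the Meis1-high pools and -1.0 and 0.43 in the Meis1-low pools. The part of these cells in the Igf1 and Igfbp6 differences was not tested.

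Markers of fibroblasts and pericytes, cells also known to express Igfbp4 and Igfbp5, had sums of 85.9 and 58.5 in the Meis1-high pools, 46.1 and 36.7 in the Meis1-low pools, and 14.2 and 39.3 in the Meis1-negative pools. The pericyte marker Rgs5 alone made up 65.8 and 50.9 of the sums in the Meis1-high pools and 32.7 and 29.7 of those in the Meis1-low pools. Without it, an alternative chosen after seeing the data, they were 20.1 and 7.57 in the Meis1-high pools, 13.4 and 6.94 in the Meis1-low pools and 7.67 and 6.2 in the Meis1-negative pools. Of 8 tested, 5 were higher and 3 lower in Meis1-high than in Meis1-low by mean, where 44.7% of all genes were higher. The defining marker Col1a1 was lowest in Meis1-high (-0.72 and -0.97, against 1.82 and 0.61 in the Meis1-low pools), and Pdgfra was well above background on 2 arrays. Endothelial markers were dim, with sums of 0.243 to 1.88 over the 6 arrays, Pecam1 well above background on 2 arrays and Cdh5 on 5. The part of stromal cells in the Igfbp4 and Igfbp5 differences was not tested.

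Markers of epithelial subsets differed between the gates as well. All 7 markers of basal medullary TEC were higher on both Meis1-high arrays than on the arrays of either other gate, with sums of 515 and 496, against 133 and 101 in the Meis1-low pools and 48.1 and 162 in the Meis1-negative pools. Their defining gene Krt5 read 7.40 and 7.38 in the Meis1-high pools and 5.23 and 5.29 in the Meis1-low pools, and Trp63 read 4.7 and 5.49 against 3.93 and 3.81. All 7 tuft-like markers tested behaved likewise, with sums of 20.3 and 19.2 in the Meis1-high pools and 1.29 to 4.13 on the other arrays; Trpm5 read 1.83 and 1.49 in Meis1-high and -1.25 and -1.25 in Meis1-low, and Pou2f3 -2.07 and -0.76 against -2.87 and -2.81. All 8 markers of mature medullary TEC were lower in Meis1-high than in Meis1-low by mean, and 7 without overlap of arrays, beside 31.0% of all genes. Aire read 1.19 and 2.69 against 3.87 and 4.65, and Cd80 -0.27 and -0.27 against 1.91 and 2.05. Of 9 cortical TEC markers, 6 were higher and 3 lower in Meis1-high than in Meis1-low by mean. Their sums were 241 and 367 in the Meis1-high pools, 321 and 194 in the Meis1-low pools, and 83.5 and 201 in the Meis1-negative pools. The cortical sums of Meis1-high and Meis1-low thus overlapped. Psmb11 read 3.65 and 4.37 in Meis1-high against 2.2 and 1.33 in Meis1-low, and Prss16 2.36 and 4.28 against 1.02 and 1.37. Of the 9 cortical markers, 5 were higher in Meis1-high than in Meis1-low without overlap, beside 22.7% of all genes. Against Meis1-negative 6 were, beside 19.3%. Igfbp4 and Igfbp5 thus had their highest arrays where the basal and tuft-like markers were highest. Psmb11 and Prss16 also read above Meis1-low there, while the cortical sum overlapped between these 2 gates. Igf1 and Igfbp6 had their highest arrays where Aire was highest. Whether the IGF differences lie within a subset or between subsets was not tested.

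**Figure D4:**
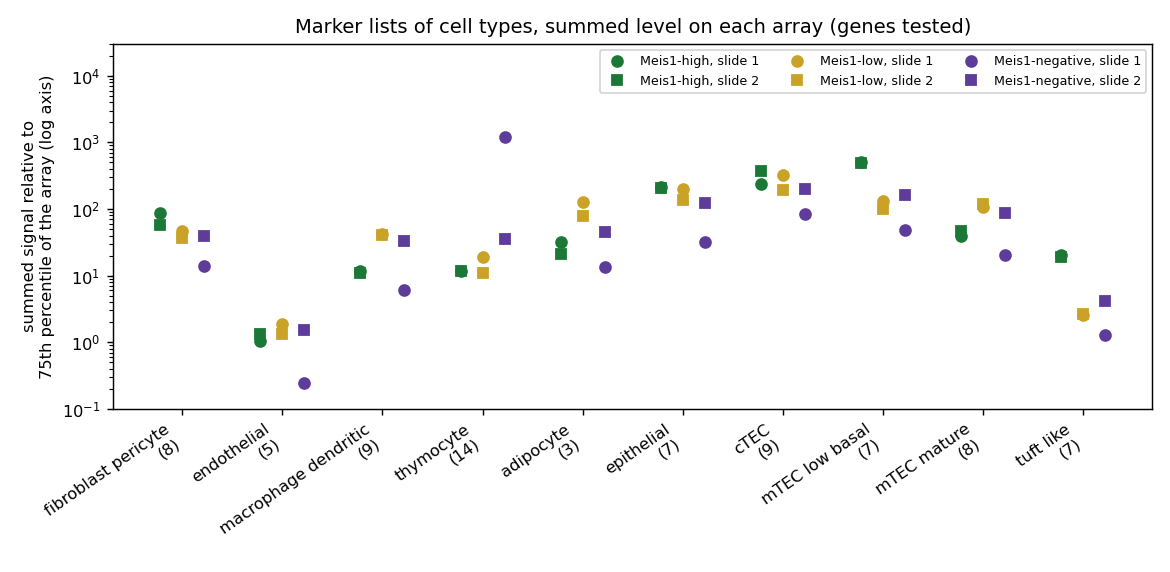
Summed signal of each cell type's marker genes (in units of the 75th percentile of the array, log axis) on the 6 arrays, with the number of genes tested in brackets; colours are gates, circles slide 1 and squares slide 2. Thymocyte markers reach 1220 on Meis1-negative replicate 1 alone, basal medullary markers are highest on both Meis1-high arrays (515 and 496), and macrophage and dendritic markers are highest on both Meis1-low arrays (42.1 and 40.8).

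For the 9 IGF genes spanning at least 2 over the 6 arrays, the 3 genes nearest in pattern were found by root mean square distance between levels centred on their own mean. With 6 arrays and 18200 genes close neighbours are easily found, and the distances and correlations are descriptions. Some neighbours, such as Adcy2, Sfrp5, Itga2 and Rcvrn, were too dim on some arrays to be well above background. Their distances and correlations rest partly on undetected signal. Nearest to Igfbp5 were Lrrc17 (distance 0.17, r = 0.995 over 6 arrays), Adcy2 (0.18, r = 0.992) and Plekha7 (0.21, r = 0.990). Lrrc17, a secreted leucine-rich repeat protein, read 1.74 and 0.69 in the Meis1-high pools, -1.34 and -1.87 in the Meis1-low pools, and -1.80 and -0.53 in the Meis1-negative pools. For Igfbp4 they were Sulf1 (0.22, r = 0.983), a sulfatase that edits heparan sulfate, Plscr2 (0.25, r = 0.982) and Rnf213 (0.29, r = 0.973). The neighbours of Igf1r were more distant: Hectd4 (0.36, r = 0.984), Hoxa4 (0.40, r = 0.989) and Dzip1 (0.45, r = 0.985).

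Igf1 was nearest to Sfrp5 (0.24, r = 0.985), a secreted Wnt inhibitor, Cspg4 (0.28, r = 0.988), a proteoglycan used above as a pericyte marker, and the transcript ENSMUST00000084544 (0.30, r = 0.980). Igfbp6 was nearest to the unnamed transcript NAP057340-1, Sbp and Rcvrn, each at 0.13, with r of 0.999, 0.997 and 0.999. Sbp read 0.63 and 0.33 in the Meis1-low pools and -2.35 and -2.38 in the Meis1-high pools, and Rcvrn, the photoreceptor calcium sensor recoverin, -2.40 and -2.62 against -4.99 and -5.13. Igf2 was nearest to Itga2 (0.06), Pde1c (0.11) and Aldh1a7 (0.18), Igfbp2 to Efhb (0.18), BC042188 (0.18) and Loxhd1 (0.20), Igfbp3 to Grhl2 (0.13), Apof (0.21) and Tceal8 (0.21), and Igfbp7 to Cldn8 (0.24), Olfr651 (0.33) and Socs5 (0.34).

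The promoters of the 3 genes that were higher in Meis1-high than in Meis1-low without overlap of arrays are shown because these genes share that pattern. Each is the 250 bases before the gene's start in RefSeq (build GRCm38.p6), and all 10 IGF genes matched that table. Capitals mark the motifs searched on both strands: TGACAG, the core site of MEIS proteins, TATAAA, the TATA box, and GGGCGG, the GC box of SP1.
Igfbp5 (chr1:72874866-72875115, minus strand): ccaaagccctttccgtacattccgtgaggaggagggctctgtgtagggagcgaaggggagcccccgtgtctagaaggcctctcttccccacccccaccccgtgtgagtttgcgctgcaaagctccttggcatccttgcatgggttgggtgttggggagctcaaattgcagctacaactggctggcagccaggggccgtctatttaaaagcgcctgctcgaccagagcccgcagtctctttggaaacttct
Igfbp4 (chr11:99040994-99041243, plus strand): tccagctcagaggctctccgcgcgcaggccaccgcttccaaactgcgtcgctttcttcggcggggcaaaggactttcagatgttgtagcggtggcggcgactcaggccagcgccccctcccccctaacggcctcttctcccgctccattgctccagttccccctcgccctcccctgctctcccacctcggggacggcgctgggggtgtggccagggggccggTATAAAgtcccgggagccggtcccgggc
Igf1r (chr7:67952007-67952256, plus strand): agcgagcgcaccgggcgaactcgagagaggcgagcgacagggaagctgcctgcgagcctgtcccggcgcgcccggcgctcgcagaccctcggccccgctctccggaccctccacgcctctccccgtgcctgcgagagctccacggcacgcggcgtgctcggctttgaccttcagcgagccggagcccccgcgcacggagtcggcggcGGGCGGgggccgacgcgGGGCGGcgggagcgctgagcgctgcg
None of the 3 windows held TGACAG, which is in 15.9% of all 32851 promoters of this length. The Igfbp4 window held 1 TATAAA (12.4% of all promoters), and the Igf1r window, at 77.6% G and C, held 2 GGGCGG (32.7% of all promoters). The Igfbp5 window held none of the 3 motifs. The absence of a match says only that these letters are not in the window.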

How the data were processed

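RNA of 6 pools of TEC was measured on one-colour arrays. Per the file headers, the signal intensity is from Agilent Feature Extraction 9.5.3.1, background-subtracted and detrended, with a surrogate value for 15.5% to 28.2% of spots. The deposited log2 table of the authors is centred on each probe's median and scaled per array; its columns correlate with the centred scanner levels at 0.99984 or above (column medians 0.154, 0.043, -0.169, -0.017, 0.025 and -0.010, Meis1-high, Meis1-low, then Meis1-negative), and how it was scaled is not given in the sources used here.

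Outlier spots (53 to 78 of 43379 per array) were dropped, spots averaged per probe, and log2 of the 75th percentile subtracted. Probes well above background (13 SD of the background, per the file headers) in both replicates of 1 gate or more were kept (26560; 14614 left out). Gene names were updated through RefSeq for 26690 probes by accession, 96 by listed accession, 5123 by symbol and 934 by synonym, and 8331 kept theirs. The brightest probe represented a gene, giving 18200 genes. Gates were compared with limma 3.58.1 in R 4.3.3, fitting 1 mean per gate, 3 residual and 4.36 prior degrees of freedom, Benjamini-Hochberg adjustment over all genes and a threshold of 0.05. The fit was tested on simulated data. Python 3.11.15, pandas 2.3.3 and matplotlib 3.10.9 made tables and figures.

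The genes, lists and tests were chosen with earlier results of these data known. The text names every probe of the 10 genes, the 4 further pathway genes with the smallest p in each comparison, the 3 nearest in pattern and the defining markers. Precision is limited by the number of arrays. Nothing says which pools were separate sorts, so p-values measure only the spread between these arrays. Slide, scan and replicate number coincide per the file headers, and the labels state no pairing of pools. Deviations of same-numbered arrays correlated across genes at 0.209, 0.128 and 0.125 between Meis1-high and Meis1-low, Meis1-high and Meis1-negative, and Meis1-low and Meis1-negative. The alternatives were normexp correction, quantile and median scaling, no filter, a floor on dim signals, the replicate number as a block, the mean over a gene's probes, tests of single probes, the deposited values, weights for arrays, robust fitting with a variance trend, and each array left out in turn.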

Additional observations from a re-analysis of the deposited data

How the results depend on the processing

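With 2 arrays a gate the precision is limited by their number. For IGF probes that were not well above background on every array, it is also limited by the signal over background. The count of IGF genes called was 0 in each comparison under every alternative except these. Normexp correction called 3, 1 and 1 (Meis1-high vs Meis1-low, Meis1-high vs Meis1-negative, Meis1-low vs Meis1-negative). Leaving out Meis1-negative replicate 2 called Igfbp6 in Meis1-low vs Meis1-negative, from a fit with 1 array left in that gate. The same fit gave the highest all-gene count in that comparison, stated below. With each array left out in turn the counts thus ran from 0 to 0, 0 to 0 and 0 to 1. With the replicate block the counts of IGF genes and of all genes called were 0 in each comparison, so it changed no call, with an adjusted p for Igfbp5 of 0.247 between Meis1-high and Meis1-low.

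Over all 18200 genes, 0 were called in each comparison, and 2357, 1916 and 1472 passed an unadjusted p under 0.05. Normexp called 235, 303 and 121 (higher and lower: 94 and 141, 126 and 177, 18 and 103). Between Meis1-high and Meis1-negative, median scaling called 78, a floor 21 and the variance trend 4, and between Meis1-low and Meis1-negative median scaling called 14. Leave-one-out counts ran from 0 to 0, 0 to 949 and 0 to 1267, the highest both without Meis1-negative replicate 2. For Meis1-high minus Meis1-negative the all-gene median was -0.10, and it became -0.22 with median scaling and 0.08 with normexp. For Meis1-low minus Meis1-negative normexp moved it from 0.05 to 0.17. Without the filter on dim probes, over 28032 genes, the medians of the 3 comparisons were 0.19, 0.17 and -0.12 in place of -0.15, -0.10 and 0.05.

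Of the differences of single genes, 488 values under an alternative kept direction and side of the threshold, 16 reversed and 6 became called. Many of the 488 could not have reversed. The replicate block, the variance trend and tests of single probes left each difference as it was. So did leaving out an array of the gate outside the comparison. The count of 488 is therefore no measure of how stable the directions are. Reversals between Meis1-high and Meis1-negative were Igf1 at -0.0677 (normexp), -0.0789 (median scaling), -0.30 (mean of probes), -1.27 (without Meis1-high replicate 1) and -0.71 (without Meis1-negative replicate 1), Igf2 at -0.0168 (without Meis1-negative replicate 1), Igf2r at 0.13 (quantile scaling), 0.21 (without Meis1-high replicate 1) and 0.0743 (without Meis1-negative replicate 2), and Igfbp6 at 0.70 (without Meis1-negative replicate 2). Between Meis1-low and Meis1-negative they were Igfbp3 at -0.12 (mean of probes), Igfbp4 at 0.19 (normexp), Igfbp5 at 0.22 (without Meis1-negative replicate 2) and Igfbp7 at 0.0618 (normexp) and 0.77 (without Meis1-low replicate 2). Between Meis1-high and Meis1-low, Igfbp3 gave -0.25 without Meis1-high replicate 2. With each array left out in turn, those that reversed so ran, in Meis1-high minus Meis1-negative, from -1.27 to 1.36 (Igf1), -0.0168 to 1.54 (Igf2), -0.35 to 0.21 (Igf2r) and -1.84 to 0.70 (Igfbp6). The ranges between Meis1-low and Meis1-negative were -0.91 to 0.22 (Igfbp5) and -1.87 to 0.77 (Igfbp7), and between Meis1-high and Meis1-low -0.25 to 1.21 (Igfbp3). The cause was not tested.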
